A study of Mus musculus with 6 samples.

Results

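Mitochondrial beta-oxidation shortens fatty acids inside mitochondria, and 10 genes encoding its core enzymes were followed here in mouse liver: Cpt1a, Cpt2, Acadm, Acadl, Acadvl, Acads, Hadha, Hadhb, Hadh and Acaa2. They were chosen by symbol for their place in the pathway, with earlier results of these data known. All 10 were found among the 21899 genes of the expression table. Each passed the filter on low counts. Liver tissue came from wild-type C57BL6J mice given a diet without methionine and choline (MCD, 3 libraries) or one with sufficient methionine and choline (MCS, 3 libraries) for 6 weeks. The MCD diet is used in mice as a model of metabolic dysfunction-associated steatohepatitis. Genotype, strain and tissue are the same in both groups, while age and sex are not given in the sources used here. PolyA RNA of whole liver was sequenced, so the values are averages over all cell types in the piece of tissue.

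Beta-oxidation is the main route by which hepatocytes burn fatty acids during fasting. Long-chain acyl groups enter the mitochondrion as carnitine esters through the outer-membrane transferase CPT1 and the inner-membrane transferase CPT2. Inside, each cycle consists of a dehydrogenation, a hydration, a second dehydrogenation and a thiolytic cleavage that releases acetyl-CoA. Separate enzymes serve long, medium and short acyl chains, and the nuclear receptor PPARalpha, with RXR as its partner, is the best-known activator of these genes in liver.

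RefSeq promoter windows (build GRCm38.p6, 250 bases before to 50 after the start) were found for 9 of the 10 genes, with Acaa2 unmatched. PPARalpha recognises paired AGGTCA half-sites, so the windows were searched on both strands for AGGTCA, for DR1 (AGGTCA, any 1 base, then AGGTCA again) and for a looser DR1 with any base as the fourth of each half-site, which includes every strict DR1. The half-site occurred in 3 of 9 windows, those of Cpt1a, Acadm and Acadvl, and in 16.3% of all 32851 windows of that length. DR1 occurred in 0 of 9 windows and the looser form in 0 of 9, against 0.04% and 0.381% of all windows. Both forms are so rare that 0 of 9 was the likely outcome for any set of genes. It cannot show that these genes lack such a site, and sequence outside the windows was not searched. GGGCGG, a GC-box core, was present in 7 of 9 windows and 35.7% of all windows, and TATAAA in 0 of 9 and 13.6%. The windows of Hadha and Hadhb overlap, and the only GGGCGG of Hadha is also a GGGCGG site of Hadhb, so these windows are not independent. GC content ran from 50.7% to 70.3% over the 9 windows, with a median of 52.7% over all windows. Sequences are shown for the 3 windows with a half-site, read 5′ to 3′ on the gene's strand, with the half-site in capitals (TGACCT is AGGTCA on the other strand). Coordinates are chr19:3323051-3323350, plus strand, for Cpt1a, chr3:153944594-153944893, minus strand, for Acadm and chr11:70015379-70015678, minus strand, for Acadvl. The window of Hadhb, chr5:30155003-30155302 on the plus strand, is shown because Hadha starts 273 bases away on the opposite strand, and the capitals mark the 228 bases that both windows share.
Cpt1a: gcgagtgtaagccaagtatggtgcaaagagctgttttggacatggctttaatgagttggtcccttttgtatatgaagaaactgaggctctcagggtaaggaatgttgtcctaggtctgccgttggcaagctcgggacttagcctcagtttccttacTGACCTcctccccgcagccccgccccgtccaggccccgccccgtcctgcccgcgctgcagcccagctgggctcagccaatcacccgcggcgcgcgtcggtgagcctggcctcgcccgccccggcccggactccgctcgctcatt
Acadm: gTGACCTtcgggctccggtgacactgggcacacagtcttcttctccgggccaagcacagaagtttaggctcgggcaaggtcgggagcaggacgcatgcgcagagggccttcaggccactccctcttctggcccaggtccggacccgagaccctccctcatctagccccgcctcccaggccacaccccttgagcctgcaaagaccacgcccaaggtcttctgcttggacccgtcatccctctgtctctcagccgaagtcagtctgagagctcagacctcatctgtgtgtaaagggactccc
Acadvl: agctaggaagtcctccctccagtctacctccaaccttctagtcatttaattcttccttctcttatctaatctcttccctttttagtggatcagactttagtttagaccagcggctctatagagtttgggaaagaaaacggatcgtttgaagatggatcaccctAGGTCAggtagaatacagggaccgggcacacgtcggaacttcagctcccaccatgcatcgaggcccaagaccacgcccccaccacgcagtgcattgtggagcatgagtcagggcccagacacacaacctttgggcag
Hadhb: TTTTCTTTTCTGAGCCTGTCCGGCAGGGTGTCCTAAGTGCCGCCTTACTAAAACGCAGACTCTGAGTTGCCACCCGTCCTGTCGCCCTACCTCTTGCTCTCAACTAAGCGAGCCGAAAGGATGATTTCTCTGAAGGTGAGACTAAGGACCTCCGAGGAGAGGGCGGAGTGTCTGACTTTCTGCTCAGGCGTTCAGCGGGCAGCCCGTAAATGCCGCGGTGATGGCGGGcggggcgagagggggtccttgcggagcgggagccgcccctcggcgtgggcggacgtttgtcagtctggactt

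Total counts were 18443357 to 21285045 in the MCD libraries and 16615469 to 21322771 in the MCS libraries. Levels are given as CPM (counts scaled to a common library size), relative to library sizes scaled with TMM, a method that assumes most genes keep their level, and as the deposited TPM, which correct for transcript length as well as depth. The scales place the diets differently: the median log2 fold change (MCD over MCS) of all 12599 tested genes was 0.015 with TMM, 0.571 with library size alone and 0.532 on the log2(TPM + 1) scale. TMM factors were 1.04 to 1.41 in the MCD and 0.797 to 0.873 in the MCS libraries. Directions between diets below are therefore relative to the typical gene. Nothing in the labels says that the 3 libraries of a diet came from separate mice. The p-values therefore set the diet difference against the spread between these libraries, which may be technical.

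Relative to the typical gene, 4 of the 10 core enzymes fell in MCD livers and none rose, at an adjusted p under 0.05 in edgeR's quasi-likelihood test. These were Cpt2, the inner carnitine transferase, Acadvl, the very-long-chain dehydrogenase, Hadha, the alpha subunit of the trifunctional protein, and Acaa2, the medium-chain thiolase. Of all tested genes 9.97% were called lower and 14.8% higher, 24.7% in all. In bulk RNA, fewer cells of a type and less RNA per cell cannot be told apart. All 10 fold changes were below 0, with a median log2 of −0.462 against 0.015 for all genes tested, and 5 were lower and 0 higher at an unadjusted p under 0.05. The shares of all genes below 0 and at that unadjusted threshold were not computed, here or for the lists below. DESeq2 called 5 lower and 0 higher, adding Hadhb (adjusted p = 0.0112), beside 13.1% lower and 16.9% higher of all genes. With limma-voom 4 were lower and 0 higher, beside 9.61% and 11.7% of all genes. Scaled by library size alone, 1 was called lower (Cpt2) and 1 higher (Acadl), where 2.76% of all genes were called lower and 40.4% higher. The log2(TPM + 1) scale gave 0 lower and 1 higher, again Acadl, beside 2.1% lower and 43.2% higher of all genes. Leaving out single libraries gave 0 lower calls without MCD replicate 1 (3.35% lower and 8.12% higher of all genes) and 0 without MCS replicate 2 (3.05% lower and 7.22% higher). There was 1 without MCS replicate 1 (433 lower and 946 higher of 13018 genes) and 1 without MCS replicate 3 (902 and 1427 of 12972). There were 3 without MCD replicate 3 (1019 and 1487 of 12726) and 5 without MCD replicate 2 (2072 and 2363 of 13000). Without replicate 3 of both diets 4 were called lower, beside 1533 lower and 1831 higher of 12516 genes. With MCS replicate 3 as the only MCS library, the median log2 fold change of the 10 was −0.461, against 0.072 for all genes.

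**Figure D1:**
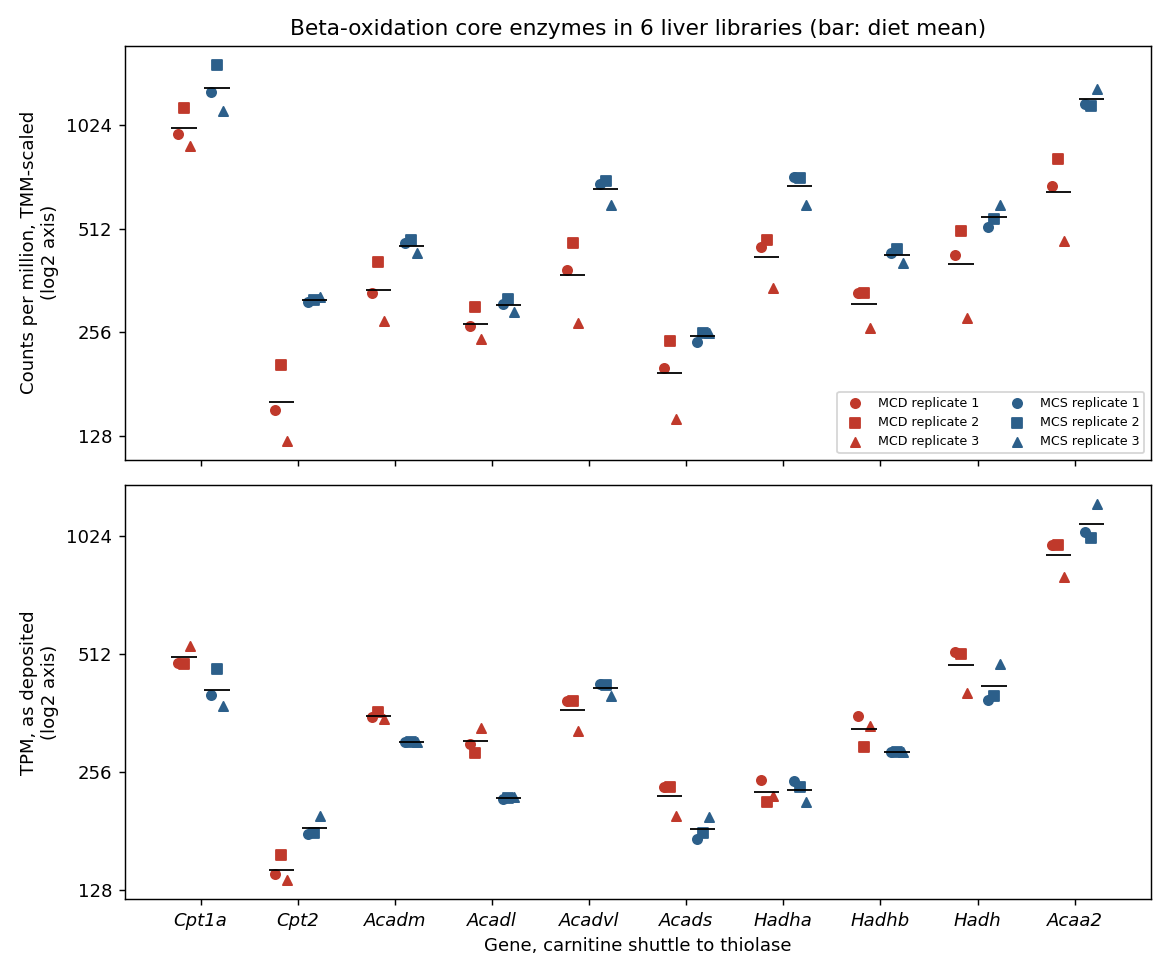
Level of each core enzyme in each library, as TMM-scaled CPM (upper panel) and as deposited TPM (lower panel), both on log2 axes, with MCD libraries left of MCS libraries and bars at the diet means. In CPM the 3 MCD values lie below all MCS values for 7 of the 10 genes. In TPM they lie below for 3 genes and above for 5.

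On the CPM scale the 3 MCD libraries lay entirely below the 3 MCS libraries for 7 of the 10 genes and above for none, where 21.3% of all tested genes lay entirely below and 23.9% above, 45.3% in all. On the TPM scale, 3 lay entirely below (Cpt2, Acadvl and Acaa2) and 5 above (Cpt1a, Acadm, Acadl, Acads and Hadhb), where 3.35% of all tested genes lay below and 59.1% above. Within the MCD group the 10 genes followed the same order of libraries in CPM: replicate 2 was highest and replicate 3 lowest for 10 of 10. TPM showed no such order: replicates 1, 2 and 3 were highest for 4, 4 and 2 genes, and replicate 2 was lowest for 4 and replicate 3 for 6. The MCD library with the highest CPM had the lowest TMM factor of its group (1.04), and the one with the lowest CPM the highest (1.41). In CPM the MCS libraries had no common order, replicate 2 being highest for 5 genes and replicate 3 for 4.

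Cpt1a (ENSMUSG00000024900), the outer-membrane transferase that sets the rate of fatty acid entry, had 968, 1152 and 888 CPM in MCD livers, against 1283, 1534 and 1125 CPM in MCS livers. The highest MCD value lay just above the lowest MCS value, so the groups overlapped. The log2 fold change was −0.39 ± 0.23 (SE; 95% interval −0.91 to 0.13; adjusted p = 0.239), and the gene was not called. In TPM the order was turned round, at 488, 485 and 537 TPM in MCD livers against 402, 470 and 377 TPM in MCS livers, and the log2(TPM + 1) difference was 0.277. On each scale its fold change lay above that of Cpt2, a difference that was not tested.

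Cpt2 (ENSMUSG00000028607), which returns the acyl group to coenzyme A at the inner membrane, had 152, 206 and 124 CPM in MCD livers, against 313, 319 and 325 CPM in MCS livers. All MCD libraries were well below the tightly grouped MCS libraries. Cpt2 fell to a ratio of 0.504 of MCS livers (log2 fold change −0.99 ± 0.21, adjusted p = 0.0117), the largest drop among the 10 in this fit. It kept its sign on the other scales, with −0.47 for library size alone (adjusted p = 0.026) and −0.354 for log2(TPM + 1). Without MCD replicate 1 or without MCS replicate 2 its adjusted p was 0.0595 and 0.0507.

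The acyl-CoA dehydrogenases start each cycle, and of the 4 in the core set only Acadvl was called. Acadvl (ENSMUSG00000018574), which acts on very long chains at the inner membrane, had 388, 465 and 273 CPM in MCD livers, against 693, 704 and 602 CPM in MCS livers. Every MCD library lay below every MCS library. Acadvl fell to a ratio of 0.564 (log2 fold change −0.83 ± 0.24, adjusted p = 0.0338). The difference was −0.306 with library size alone and −0.192 on the log2(TPM + 1) scale, neither of them called. Its adjusted p lay between 0.0551 and 0.121 in the fits without MCD replicate 1, MCS replicate 1, MCS replicate 2 or MCS replicate 3.

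Acadl (ENSMUSG00000026003), the long-chain dehydrogenase, had 267, 303 and 245 CPM in MCD livers, against 311, 321 and 294 CPM in MCS livers. The groups overlapped, and the log2 fold change of −0.18 ± 0.17 (95% interval −0.57 to 0.20, adjusted p = 0.451) was the nearest to 0 of the 10. In TPM, Acadl stood at 303, 287 and 331 in MCD livers and at 219, 220 and 221 in MCS livers, with every MCD library above every MCS library. With library size alone Acadl was the one member called higher (0.358, adjusted p = 0.0427), and on the log2(TPM + 1) scale likewise (0.476, adjusted p = 0.0199).

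Acadm (ENSMUSG00000062908) and Acads (ENSMUSG00000029545) encode the medium-chain and short-chain dehydrogenases. Acadm had 333, 411 and 276 CPM in MCD livers and 464, 475 and 435 CPM in MCS livers (log2 fold change −0.43 ± 0.20, adjusted p = 0.149). Its groups did not overlap, yet the difference was not called, except without MCD replicate 2 (−0.62, adjusted p = 0.0429). Acads had 202, 241 and 143 CPM in MCD livers and 240, 255 and 256 CPM in MCS livers (log2 fold change −0.36 ± 0.21, adjusted p = 0.235), and its groups overlapped slightly. In TPM both genes were higher in every MCD library than in any MCS library, with 357 ± 7.71 TPM in MCD and 306 ± 0.342 TPM in MCS for Acadm and 223 ± 20.9 TPM in MCD and 183 ± 12.5 TPM in MCS for Acads (SD, n = 3 each).

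Hadha (ENSMUSG00000025745) and Hadhb (ENSMUSG00000059447) encode the alpha and beta subunits of the mitochondrial trifunctional protein, which carries out the last 3 steps of the cycle on long chains. Hadha had 453, 476 and 345 CPM in MCD livers, against 725, 718 and 599 CPM in MCS livers. The groups were separate, and Hadha fell to a ratio of 0.624 (log2 fold change −0.68 ± 0.21, adjusted p = 0.0438). The call was absent in more of the fits with 1 library left out than those of the other 3, its adjusted p being 0.0561 to 0.156 in the 5 fits without MCD replicate 1, MCD replicate 3, MCS replicate 1, MCS replicate 2 or MCS replicate 3, and 0.0577 with no filter on low counts. In TPM the diets overlapped, at 228 ± 15.5 TPM in MCD and 231 ± 14.6 TPM in MCS livers.

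Hadhb had 333, 334 and 264 CPM in MCD livers, against 435, 446 and 408 CPM in MCS livers, without overlap. Its log2 fold change of −0.47 ± 0.18 (95% interval −0.88 to −0.06) had an adjusted p of 0.0897 and was not called. In TPM it stood higher in every MCD library than in any MCS library, at 330 ± 29.8 TPM against 289 ± 0.471 TPM. The ratio of Hadha to Hadhb TPM within a library, which no scaling between libraries can move, was 0.686, 0.722 and 0.663 in MCD livers, against 0.843, 0.816 and 0.745 in MCS livers. Every MCD ratio was below every MCS ratio, with means of 0.691 ± 0.0297 and 0.801 ± 0.0506 (exact two-sided permutation p = 0.1, the smallest that 3 against 3 allows). The promoter windows of the 2 genes overlap in the 228 bases shown above in capitals.

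Hadh and Acaa2 complete the cycle for shorter chains. Hadh (ENSMUSG00000027984), the medium- and short-chain 3-hydroxyacyl-CoA dehydrogenase, had 429, 505 and 281 CPM in MCD livers, against 518, 546 and 600 CPM in MCS livers. Its groups did not overlap, but the spread within MCD was wide and the log2 fold change of −0.45 ± 0.24 was not called (95% interval −1.0 to 0.09, adjusted p = 0.196). Its TPM overlapped between diets, at 480 ± 63.2 in MCD and 425 ± 50.9 in MCS livers.

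Acaa2 (ENSMUSG00000036880), the medium-chain thiolase that releases acetyl-CoA, had 680, 815 and 473 CPM in MCD livers, against 1181, 1168 and 1300 CPM in MCS livers. The gap between the groups was wider than the range within either, and Acaa2 fell to a ratio of 0.539 (log2 fold change −0.89 ± 0.25, adjusted p = 0.0318). The difference was −0.377 with library size alone and −0.258 on the log2(TPM + 1) scale, again without a call. In the fits without MCD replicate 1, MCS replicate 1, MCS replicate 2 or MCS replicate 3 its adjusted p was 0.0765 to 0.111.

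**Figure D2:**
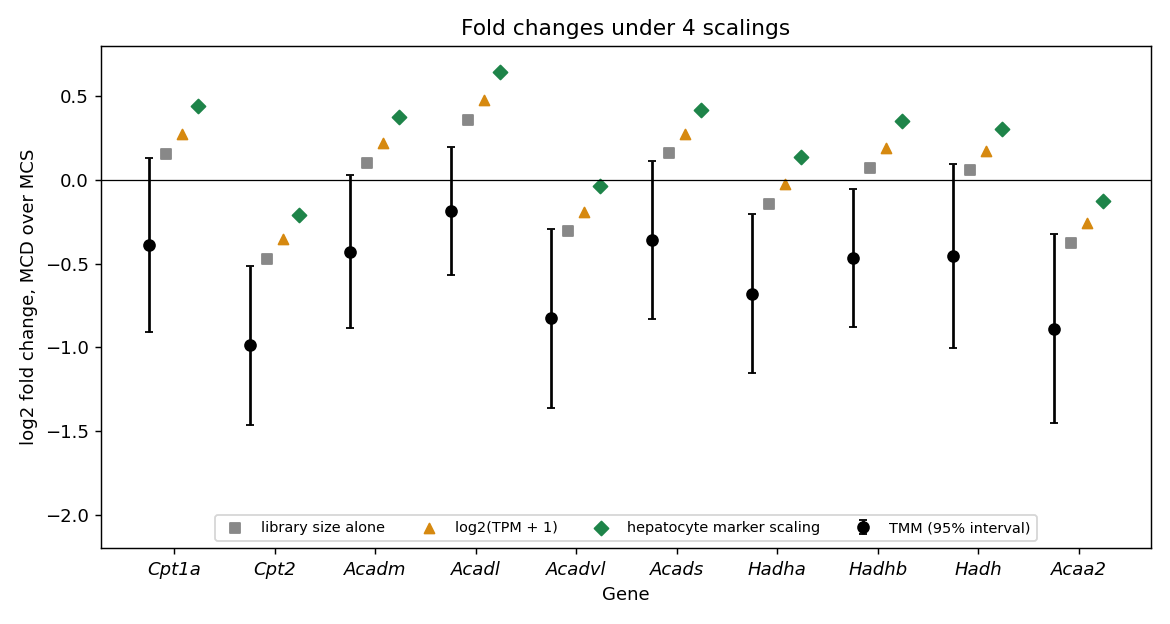
Log2 fold change (MCD over MCS) of each core enzyme under 4 ways of scaling the libraries, with the 95% interval for the TMM fit. Every point moves upward from TMM to the other scalings, so that 6 of the 10 genes are above 0 on the log2(TPM + 1) scale. Cpt2, Acadvl and Acaa2 stay below 0 on all 4.

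Cpt2, Acadvl and Acaa2 were below 0 with TMM, library size alone, log2(TPM + 1) and a scaling by 20 hepatocyte marker genes, which was chosen after the data were seen. Hadha was below 0 on the first 3 (−0.68, −0.144 and −0.023) and above 0 on the hepatocyte scale (0.139). The other 6, Cpt1a, Acadm, Acadl, Acads, Hadhb and Hadh, were below 0 with TMM and above 0 on the other 3. Hepatocyte scaling gave 0 members called lower and 1 called higher (Acadl, 0.642, adjusted p = 0.0322), beside 1.29% of all genes called lower and 46.8% higher, and it moved the median of all genes to 0.866. In the authors' deposited table, whose fold changes rest on mean TPM, the log2 fold changes ran from −0.355 for Cpt2 to 0.480 for Acadl and none of the 10 had an FDR under 0.05, while 1.31% of that table's genes were lower and 20.5% higher at that threshold.

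The make-up of the pathway's mRNA can be compared without any scaling between libraries. The share of each gene in the summed TPM of the 10 was computed within each library. Acaa2 made up 24.4%, 24.9% and 22.1% in MCD livers, against 28.5%, 27.2% and 31.5% in MCS livers, the lowest MCS share being above the highest MCD share. Acadvl held 9.71%, 9.95% and 8.94% in MCD and 11.7%, 11.5% and 10.2% in MCS livers. Cpt2 held 3.51%, 4.02% and 3.72% in MCD and 4.84%, 4.81% and 5.03% in MCS livers. These 3 shares were lower in every MCD library than in any MCS library.

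Shares of 3 dehydrogenases lay the other way. Acadl made up 7.55%, 7.32% and 9.07% in MCD livers, against 5.94%, 5.92% and 5.63% in MCS livers. Acadm had 9.25% ± 0.376 in MCD and 8.12% ± 0.266 in MCS livers, and Acads 5.76% ± 0.285 in MCD and 4.85% ± 0.165 in MCS livers (SD, n = 3 each). Thus the long-, medium- and short-chain dehydrogenases were higher shares in every MCD library, and the very-long-chain dehydrogenase a lower share. Cpt1a, Hadha, Hadhb and Hadh overlapped between diets. Each of the 6 non-overlapping shares had an exact two-sided permutation p of 0.1, the smallest possible with 3 against 3, and 0.167 adjusted over the 10 shares, so none passed. The shares sum to 100% in a library and are not independent of each other. Shares of the summed counts gave the same 6 separations in the same directions.

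**Figure D3:**
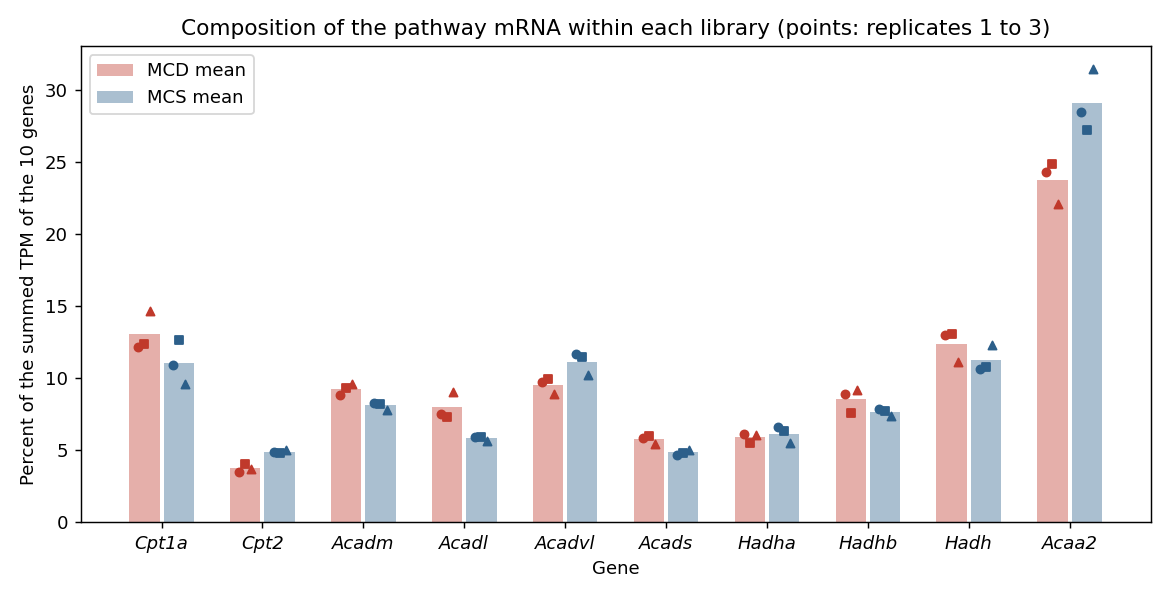
Share of each gene in the summed TPM of the 10 core enzymes within each library, in percent, with bars at the diet means (MCD left, MCS right) and one point per library. Acaa2 averages 23.8% in MCD and 29.1% in MCS, and Acadl 7.98% in MCD and 5.83% in MCS.

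All 10 are abundant liver transcripts. By mean TPM they lay between the 92.9th and 98.9th percentile of tested genes in MCD and between the 95.1st and 99th in MCS livers. In MCD livers Acaa2 was the most abundant at 920 ± 97.2 TPM, followed by Cpt1a at 503 ± 29.0 and Hadh at 480 ± 63.2, which did not differ beyond their spread. Acadvl, Acadm, Hadhb and Acadl formed a run of neighbours between 369 and 307 TPM that also overlapped. Hadha at 228 and Acads at 223 TPM overlapped in turn, and Cpt2 was the lowest at 145 ± 11.6 TPM. In MCS livers Acaa2 again led at 1101 ± 120 TPM, then Hadh at 425, Acadvl at 420 and Cpt1a at 417 TPM, 3 levels within each other's spread. Acadm at 306 and Hadhb at 289 TPM followed. Hadha at 231 and Acadl at 220 TPM did not differ beyond their spread, nor did Cpt2 at 185 and Acads at 183 TPM. By mean TPM Cpt1a had rank 2 in MCD and rank 4 in MCS livers, but both ranks rest on levels that did not differ beyond their spread.

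Summed over the 10 genes, the mRNA was 4009, 3923 and 3653 TPM in MCD livers and 3684, 3722 and 3926 TPM in MCS livers, which overlapped. On the TMM-scaled CPM scale the sums were 4205, 4908 and 3313 in MCD and 6162, 6485 and 5943 in MCS livers, without overlap. Hepatocyte markers were lower too on the CPM scale: 5 of 20 fell, none rose, and the median log2 fold change was −0.785. Library size alone gave 2 lower and 0 higher. Their summed level was 87050 to 150000 CPM in MCD and 145600 to 166800 CPM in MCS libraries, and Alb stayed abundant in all 6. None of the 20 was called lower without MCD replicate 1, MCD replicate 3, MCS replicate 1 or MCS replicate 2, and 13 were without MCD replicate 2. Set against the geometric mean TPM of these markers, the summed core enzymes were 1.70, 1.5 and 1.78 in MCD livers and 1.33, 1.42 and 1.73 in MCS livers, which overlapped.

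Macrophage, stellate cell and cholangiocyte markers were higher in MCD libraries. Macrophage markers summed to 1377 to 2837 CPM in MCD and 475 to 554 CPM in MCS libraries, and 11 of 16 rose while 2 fell, a lower count that became 0 without MCS replicate 2 and 1 without MCD replicate 1, MCS replicate 1 or MCS replicate 3. Stellate cell and myofibroblast markers summed to 412 to 1867 CPM in MCD and 187 to 327 CPM in MCS libraries, and 7 of 14 rose. That count was 0 without MCS replicate 2, 3 without MCD replicate 1, 3 without MCD replicate 3, 4 without MCS replicate 1 and 12 without MCD replicate 2. Cholangiocyte markers summed to 226 to 606 CPM in MCD and 59.1 to 88.1 CPM in MCS libraries, and 8 of 10 tested rose, 5 without MCS replicate 2. Spp1, which stands in both the macrophage and the cholangiocyte list and rose, made up most of the cholangiocyte sum in each library. Its level was 318, 175 and 522 CPM in MCD and 56.7, 57.3 and 33.9 CPM in MCS libraries. The macrophage and cholangiocyte results are therefore not independent. Endothelial markers overlapped, at 104 to 528 CPM in MCD and 183 to 584 CPM in MCS libraries (median log2 fold change −0.36). For lymphocyte and neutrophil markers the sums overlapped, at 13.5 to 39.8 CPM in MCD and 10.9 to 14.4 CPM in MCS libraries. Of 12 tested 3 rose, a count of 0 to 4 with 1 library left out. Fat cell markers overlapped at 7.01 to 22.8 CPM in MCD and 7.83 to 15.0 CPM in MCS. Of 2 tested, Cfd fell, at 0.151 CPM in MCD and 3.74 CPM in MCS libraries (log2 fold change −4.65, adjusted p = 0.0235). That count was 0 to 1 with 1 library left out. Muscle markers were near 0, 7 of 8 being at 0 in every library. MCD replicate 3, lowest of the MCD group for each core enzyme in CPM, had the highest macrophage, stellate, cholangiocyte and endothelial sums and the lowest hepatocyte sum of that group. MCS replicate 3 likewise had the highest macrophage, stellate and endothelial sums and the lowest hepatocyte sum of its group, but the lowest cholangiocyte sum. Endothelial sums were 183, 219 and 584 CPM in MCS replicates 1, 2 and 3. In CPM, MCS replicate 3 was lowest of its group for 6 core enzymes and highest for 4. The part of these cell markers in the lower CPM of the core enzymes was not tested.

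Acyl groups are activated and bound to carnitine before they reach the core enzymes. Of 12 tested genes for fatty acid activation and carnitine handling, 6 fell, 1 rose and 5 were not called, with a median log2 fold change of −0.57. Acsl1, the main long-chain acyl-CoA synthetase of liver, fell to 705 CPM in MCD livers, against 2536 CPM in MCS livers (log2 fold change −1.85 ± 0.29, adjusted p = 0.00332), and was −1.33 with library size alone. Crat, carnitine acetyltransferase, fell to 78.8 CPM in MCD against 161 CPM in MCS livers (−1.03 ± 0.16, adjusted p = 0.00334). Slc25a20, the carnitine/acylcarnitine carrier that works between the transferases, fell by 0.89 on the log2 scale (adjusted p = 0.0194). Slc22a5, the plasma membrane carnitine transporter, fell by 0.87 (adjusted p = 0.0207). Acsl4, a synthetase that prefers arachidonate, was the one that rose, at 54.1 CPM in MCD against 21.7 CPM in MCS livers (1.32 ± 0.27, adjusted p = 0.0116). Cpt1b, the muscle form of CPT1, was near 5 CPM (3.69 in MCD, 5.44 in MCS) and was not called (−0.56, adjusted p = 0.296). Acsl1, Crat and Acsl4 were called in each fit with 1 library left out, whereas Slc25a20 and Slc22a5 were not without MCD replicate 1, MCS replicate 1 or MCS replicate 2, nor Slc22a5 without MCD replicate 3. The 6 lower calls became 2 without MCS replicate 1, 3 without MCD replicate 1, 3 without MCS replicate 2 and 9 without MCD replicate 2, and were 2 with library size alone, where 2 were higher. On that scale Crat was −0.48 (adjusted p = 0.0198) and Acsl4 1.91 (adjusted p = 0.005), both called, while Slc25a20 at −0.37 and Slc22a5 at −0.32 were not.

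Auxiliary enzymes, which handle double bonds and branched or related substrates, had 6 genes fallen, 1 risen and 7 not called of 14 tested, with a median log2 fold change of −0.523. Eci1, an enoyl-CoA isomerase, fell to 99.6 CPM in MCD against 192 CPM in MCS livers (−0.95 ± 0.18, adjusted p = 0.00732) and was called in each fit with 1 library left out. Decr1, the 2,4-dienoyl-CoA reductase, fell by 0.77 on the log2 scale (adjusted p = 0.0146), Eci2 fell by 0.73 (adjusted p = 0.0190) and Ech1, a dienoyl-CoA isomerase, fell by 0.81 (adjusted p = 0.0242). Hsd17b10, which acts in isoleucine breakdown and mitochondrial tRNA processing, fell by 1.22 (adjusted p = 0.0266). Acad12, named as an acyl-CoA dehydrogenase family member, rose to 31.8 CPM in MCD against 20.7 CPM in MCS livers (0.62 ± 0.15, adjusted p = 0.0209). Echs1, the short-chain enoyl-CoA hydratase that carries out the second step for short chains, was not called, at 210 CPM in MCD and 303 CPM in MCS livers (−0.53 ± 0.23, adjusted p = 0.121). The 6 lower calls became 1 without MCD replicate 1, 2 without MCS replicate 1, 1 without MCS replicate 2, 4 without MCS replicate 3 and 9 without MCD replicate 2, and the single higher call was absent without MCD replicate 1, MCS replicate 1 or MCS replicate 2. Library size alone gave 1 lower and 3 higher. There Eci1 (−0.42, adjusted p = 0.0403) and Acad12 (1.17, adjusted p = 0.00523) were called, while Decr1 was −0.235, Eci2 −0.20, Ech1 −0.29 and Hsd17b10 −0.74 without a call.

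Electrons from the acyl-CoA dehydrogenases pass through electron transfer flavoprotein and its oxidoreductase to ubiquinone. In that list 2 of 5 genes fell: Etfdh, the oxidoreductase, by 0.80 (adjusted p = 0.0123) and Etfb, the beta subunit of the flavoprotein, by 0.76 (adjusted p = 0.0353). Etfa, the alpha subunit, was not called, at 199 CPM in MCD and 234 CPM in MCS livers (−0.23 ± 0.19, adjusted p = 0.403). Neither of the 2 was called without MCD replicate 1, MCS replicate 1 or MCS replicate 2, while 4 were without MCD replicate 2 and 1 without MCS replicate 3. Of 4 acyl-CoA dehydrogenases of amino acid breakdown, 2 fell, among them Acadsb (−0.54 ± 0.14, adjusted p = 0.0235), and the count was 0 to 1 without MCD replicate 1, MCD replicate 3 or any 1 MCS library and 4 without MCD replicate 2. Gcdh, glutaryl-CoA dehydrogenase, had 376 CPM in MCD and 705 CPM in MCS livers and was not called (adjusted p = 0.0528). No gene of either list was called with library size alone, where Etfdh was −0.26, Etfb −0.24 and Acadsb 0.007.

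**Figure D4:**
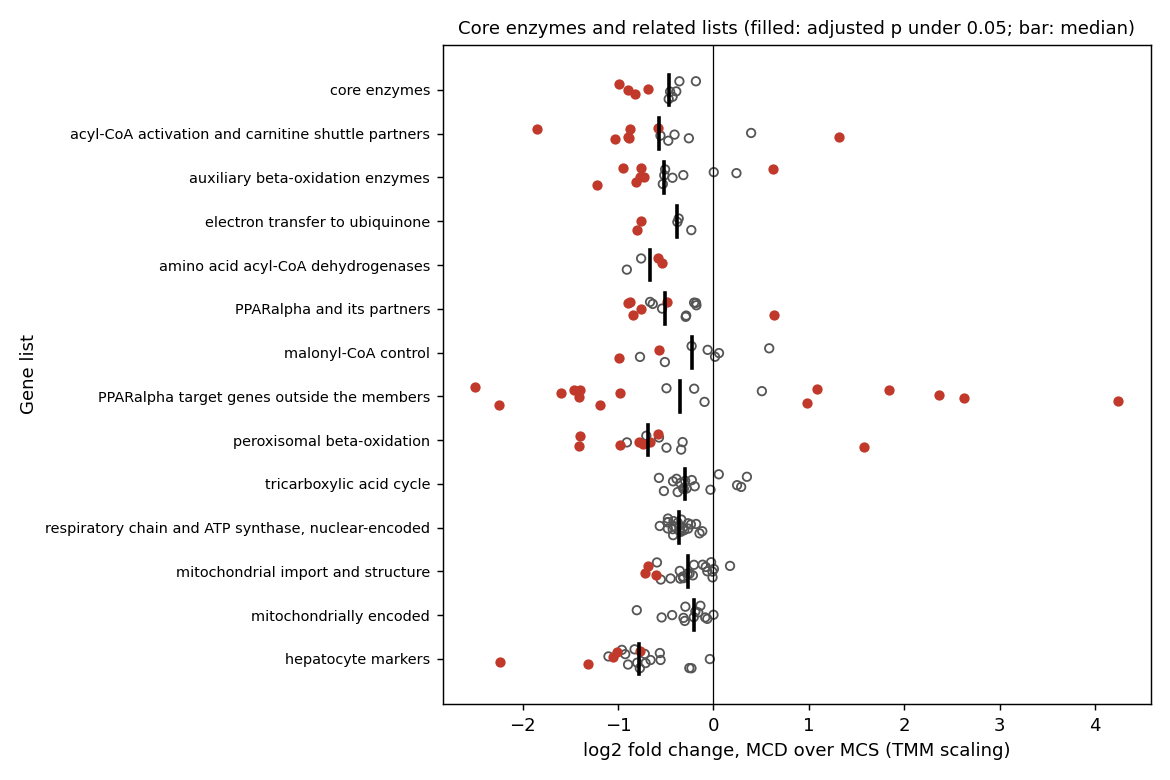
Log2 fold change (MCD over MCS, TMM scaling) of each tested gene in the core set and in 13 related lists, with filled points for an adjusted p under 0.05 and bars at the list medians. The core enzymes and the lists of activation partners, auxiliary enzymes and electron transfer have medians between −0.57 and −0.378. Amino acid acyl-CoA dehydrogenases (−0.668), peroxisomal beta-oxidation (−0.684) and hepatocyte markers (−0.785) have lower medians. Malonyl-CoA control (−0.229) and the other mitochondrial lists (−0.359 to −0.206) have higher ones. The PPARalpha targets spread from below −2 to above 4.

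Regulators of the pathway were measured in the same libraries. Of 14 tested genes for PPARalpha and its partners 5 fell, 1 rose and 8 were not called (median −0.512). Ppara itself fell to 83.6 CPM in MCD against 150 CPM in MCS livers (−0.84 ± 0.17, adjusted p = 0.00884), and Nr0b2, which encodes the corepressor SHP, fell by 0.89 (adjusted p = 0.0097). Both were called in each fit with 1 library left out, but not with library size alone, where Ppara was −0.301 (adjusted p = 0.117) and Nr0b2 −0.332 (adjusted p = 0.201). Rxra, the partner receptor, fell by 0.87 (adjusted p = 0.0272) and Creb3l3, a hepatocyte transcription factor that works with PPARalpha, fell by 0.76 (adjusted p = 0.0364), and both calls were absent without MCD replicate 1, MCS replicate 1 or MCS replicate 2. Pparg, the fat-cell family member, rose to 19.1 CPM in MCD against 12.3 CPM in MCS livers (0.63 ± 0.15, adjusted p = 0.0190), a call absent without any 1 of the MCS libraries. Ppargc1a, the PGC-1alpha coactivator, was not called, at 5.70 CPM in MCD and 7.0 CPM in MCS livers (−0.29 ± 0.26, adjusted p = 0.442). The 5 lower calls became 2 without MCD replicate 1, MCS replicate 1 or MCS replicate 2 and 3 without MCD replicate 3, and with library size alone 0 were lower and 1 higher. On that scale Rxra was −0.35 and Creb3l3 −0.235 without a call, and Pparg was called higher (1.18, adjusted p = 0.00324).

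Malonyl-CoA blocks CPT1, and genes of its turnover and of related control were mostly not called, with 2 of 9 lower and 0 higher (median −0.229). Sirt3, a mitochondrial deacetylase, fell by 0.99 (adjusted p = 0.0129), and Mlycd, which degrades malonyl-CoA, fell by 0.57 (adjusted p = 0.0464). Acaca, which makes cytosolic malonyl-CoA, stood at 72.6 CPM in MCD and 69.7 CPM in MCS livers and was not called (0.06 ± 0.17, adjusted p = 0.832). Only without MCD replicate 2 was Mlycd called among the fits with 1 library left out. The count of 2 became 0 without MCD replicate 1 and 1 without MCD replicate 3, MCS replicate 1 or MCS replicate 2, and with library size alone 0 were lower and 4 higher. There Sirt3 was −0.485 (adjusted p = 0.0528) and Mlycd −0.054 (adjusted p = 0.746).

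Other targets of PPARalpha did not move as one group: of 18 tested, 8 fell, 6 rose and 4 were not called (median −0.347). Acot1, an acyl-CoA thioesterase, fell to 22.2 CPM in MCD against 125 CPM in MCS livers (−2.50 ± 0.22, adjusted p = 0.000397). Cyp4a10, an omega-hydroxylase, fell to 545 CPM in MCD against 2598 CPM in MCS livers (−2.25 ± 0.30, adjusted p = 0.00172). Both have close relatives in the mouse genome, so the split of reads between copies is uncertain. Cd36, a fatty acid uptake receptor that macrophages and endothelium also express, rose to 324 CPM in MCD against 52.3 CPM in MCS livers (2.63 ± 0.29, adjusted p = 0.000855). All 3 kept their direction and call with library size alone (−1.97, −1.71 and 3.22), where 8 of the 18 were called lower and 7 higher.

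Peroxisomal beta-oxidation, the route for very long and branched chains, had 7 of 14 genes fallen, 1 risen and 6 not called (median −0.684). Acaa1b, a thiolase with the close copy Acaa1a, fell to 678 CPM in MCD against 1790 CPM in MCS livers (−1.40 ± 0.21, adjusted p = 0.00288). Abcd2, a peroxisomal acyl-CoA transporter, rose to 30.7 CPM in MCD against 10.3 CPM in MCS livers (1.57 ± 0.19, adjusted p = 0.00113). Acaa1b was still called lower with library size alone (−0.842, adjusted p = 0.0123), and Abcd2 called higher (2.14, adjusted p = 0.00209). The count of 7 became 2 without MCD replicate 1, 3 without MCS replicate 1 or MCS replicate 2 and 10 without MCD replicate 2, and was 3 with library size alone, where 1 was higher.

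Other mitochondrial genes were grouped in 4 lists. Of 17 genes of the tricarboxylic acid cycle, none was called by edgeR (median −0.296), with 2 lower and 2 higher at an unadjusted p under 0.05, and DESeq2 called 2 lower and 1 higher and limma-voom 0. Among 23 nuclear-encoded genes of the respiratory chain and ATP synthase none was called either, although all 23 fold changes were below 0 (median −0.359). At an unadjusted p under 0.05, 3 were lower and 0 higher, and DESeq2 and limma-voom called 0. Import and structure genes had 3 of 23 lower (median −0.27), none without MCD replicate 1, MCS replicate 1 or MCS replicate 2, 1 without MCD replicate 3 or MCS replicate 3 and 7 without MCD replicate 2. In that list 7 were lower at an unadjusted p under 0.05, DESeq2 called 6 lower and limma-voom 3. For the 13 genes encoded by the mitochondrial genome the median was −0.206 and none was called, with 1 lower at an unadjusted p under 0.05, 2 called lower by DESeq2 and 0 by limma-voom. Without MCD replicate 2, 3 genes of the tricarboxylic acid cycle, 9 of the respiratory chain and 3 of the mitochondrial genome were called lower, and without MCD replicate 3, 1 of the tricarboxylic acid cycle was called higher. With library size alone, 5 genes of the tricarboxylic acid cycle, 1 of the respiratory chain, 7 of import and structure and 1 of the mitochondrial genome were called higher and none lower. Whether the core enzymes differed from these lists was not tested.

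The genes whose profile over the 6 libraries was nearest to the mean profile of the 10 were found among 9090 other genes with at least 5 CPM, by the root mean square difference of centred log2 CPM. Nearest was Hsd17b4, the peroxisomal multifunctional protein that carries out the middle steps of that pathway, at 0.016, with a log2 fold change of −0.57 ± 0.21 (adjusted p = 0.0823, not called). Ifrd2 (0.039), Dcaf8 (0.0394), Naxd (0.0398) and Camk2n1 (0.0425) followed. Naxd encodes the dehydratase that repairs hydrated NADH and NADPH. The 10 enzymes themselves lay between 0.0781 for Acadm and 0.227 for Cpt2 from their own mean. The 5 genes were picked for the smallest distance to it, so their distances cannot be set against those of the members.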

How the data were processed

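Liver polyA RNA of 3 MCD and 3 MCS libraries was grouped by the diet in the sample titles. The labels' protocols name Trizol extraction and capture of mRNA on beads, and do not mention strand. Genome build GRCm39 and the programs RSEM, StringTie 1.3.1, HISAT2 2.1.0, Bowtie2 2.2.8 and fastp 0.18.0 are listed without roles, per the submitters' processing notes. Per the file headers, the deposited table holds a count and a TPM value per gene and library and the authors' mean TPM, log2 fold change, p-value and FDR. The deposited counts are whole numbers, but in 64 cells a count of 0 stands beside a positive TPM. The deposited values were therefore taken as rounded estimated counts. The log2 values deposited by the authors compare mean TPM, and how the authors obtained their p-value and FDR columns is not stated in the labels.

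In R 4.3.3, edgeR 4.0.16 fitted diet alone (TMM, filterByExpr with a minimum count of 10, robust quasi-likelihood test) to all genes. Of 21899 genes, 5317 had no count and 12599 were tested. Genes were called, and described as having risen or fallen, at a Benjamini-Hochberg adjusted p under 0.05 over all tested genes. SE was obtained as |log2 fold change| / √F. Intervals are 95%. DESeq2 1.42.0, limma 3.58.1 (voom, and log2 TPM with a pseudocount of 1 or 0.1), other scalings, no count filter and fits with libraries left out were alternatives. Shares and ratios within libraries were compared by exact permutation. Chi-square per degree of freedom between replicates was 13.7 to 151, so no pair agreed within sampling noise. Scripts were tested on simulated data.

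The 10 genes and all lists were chosen with earlier results of these data known. Every gene of the 6 lists nearest the pathway could be named, from activation partners to malonyl-CoA control. From other lists, the rule allows the 2 called genes of smallest p in the direction most of them took and 1 in the opposite one, or the most abundant gene where none was called. Nearest profiles were limited to the first 5. Cyp4a10, Acot1 and Acaa1b have close copies that can exchange reads. Promoters came from RefSeq tables of GRCm38.p6, another build than that of the counts, and were used for sequence only. Spp1 is named outside this rule because it stands in both the macrophage and the cholangiocyte list. Not every gene that the rule allows is reported here.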

Additional observations from a re-analysis of the deposited data

How the results depend on the processing

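In all, 18 alternatives were run. Over all tested genes, 1256 were lower and 1861 higher. Library size alone gave 348 lower and 5095 higher, log2(TPM + 1) 264 and 5449, log2(TPM + 0.1) 274 and 5718, hepatocyte marker scaling (added after seeing the data) 163 and 5900, and the fit without MCS replicates 1 and 2, where the lone MCS library is assumed to vary like the MCD libraries, 28 and 46. Leaving out 1 library gave 400 to 2072 lower and 946 to 2363 higher. The 4 core enzymes called lower became 1 with library size alone, 0 on either TPM scale, 0 with hepatocyte scaling, 0 without MCS replicates 1 and 2, and 0 to 5 with 1 library left out. The 0 called higher became 1, Acadl, with library size alone, on either TPM scale and with hepatocyte scaling, and stayed 0 with 1 library left out. Upper quartile scaling gave 4 lower, beside 1159 lower and 1974 higher of 12599 genes. RLE scaling also gave 4 (1305 and 1826 of 12599), and no filter 3 (1292 and 1895 of 16582). Genes of the 12 pathway lists, 39 lower and 10 higher, became 12 and 32 with library size alone, 8 and 41 with log2(TPM + 1), 8 and 43 with log2(TPM + 0.1), 5 and 41 with hepatocyte scaling, 1 and 1 without MCS replicates 1 and 2, and 13 to 72 and 8 to 12 with 1 library left out.

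Signs that turned are listed here as log2 fold changes, and why they turned was not tested. With library size alone the values above 0 were Cpt1a 0.153, Acadm 0.1, Acadl 0.358, Acads 0.161, Hadhb 0.071, Hadh 0.057, Etfa 0.292, Acadsb 0.007 and Ppargc1a 0.28. On the log2(TPM + 1) scale the values above 0 were Cpt1a 0.277, Acadm 0.219, Acadl 0.476, Acads 0.276, Hadhb 0.189, Hadh 0.172, Cpt1b 0.091, Echs1 0.121, Etfa 0.429, Acadsb 0.145, Ppargc1a 0.302, Mlycd 0.07, Hsd17b4 0.075, Dcaf8 0.04, Naxd 0.1 and Camk2n1 0.018. On the log2(TPM + 0.1) scale the values above 0 were Cpt1a 0.278, Acadm 0.219, Acadl 0.478, Acads 0.277, Hadhb 0.19, Hadh 0.173, Cpt1b 0.135, Echs1 0.121, Etfa 0.43, Acadsb 0.152, Ppargc1a 0.429, Mlycd 0.071, Hsd17b4 0.075, Dcaf8 0.041, Naxd 0.102 and Camk2n1 0.019. With hepatocyte scaling the values above 0 were Cpt1a 0.441, Acadm 0.373, Acadl 0.642, Acads 0.419, Hadha 0.139, Hadhb 0.353, Hadh 0.306, Cpt1b 0.255, Echs1 0.224, Decr1 0.047, Eci2 0.078, Etfa 0.551, Etfb 0.009, Etfdh 0.016, Acadsb 0.288, Ppargc1a 0.592, Creb3l3 0.04, Mlycd 0.204, Hsd17b4 0.225, Ifrd2 0.199, Dcaf8 0.192, Naxd 0.26 and Camk2n1 0.164. Values of genes not called also turned with fewer libraries: Acaca was −0.113 without MCD replicate 1 and −0.033 without MCS replicate 3, Cpt1b 0.142 without MCS replicates 1 and 2, and Etfa 0.007 without replicate 3 of both diets, and the cause was not tested. The shares within a library and the Hadha to Hadhb ratio kept their direction under each alternative run on them.

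Replicate numbers were not shown to pair the libraries: same-numbered libraries deviated together with r = 0.063, 0.147 and 0.246. With the replicate block, 1296 genes were lower and 1987 higher and the same 4 core enzymes were lower. Lower calls with the block were 1 of the amino acid dehydrogenases (2 without it), 1 in malonyl-CoA control (2 without), 1 in the tricarboxylic acid cycle (0 without), 1 of the mitochondrially encoded genes (0 without) and 3 endothelial markers (0 without), and 13 stellate cell markers were higher (7 without). Each MCD library correlated best with the MCS library of its own number (3 of 3), a hint from the data, not the design. Depth of 16615469 to 21322771 counts leaves little counting error for genes as abundant as these, and with 3 libraries per diet no permutation p can be under 0.1.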

Other observations

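The 3 MCS libraries gave nearly the same TPM for 3 of the core enzymes. The coefficient of variation of Acadm was 2.16% in MCD and 0.112% in MCS livers, that of Hadhb 9.03% in MCD and 0.163% in MCS, and that of Acadl 7.31% in MCD and 0.548% in MCS. These MCS values in TPM are below the coefficients that counting error alone would give (1.17%, 1.21% and 1.42%). In TMM-scaled CPM the MCS libraries were less close, at 457.9 ± 20.85 for Acadm, 429.6 ± 19.45 for Hadhb and 308.4 ± 13.69 for Acadl (mean ± SD). Of 1131 genes averaging at least 100 TPM, 0 had a lower MCS value than Acadm, 1 a lower one than Hadhb and 5 a lower one than Acadl. The medians over these genes were 11.8% in MCD and 15.1% in MCS. For 8 of the 10 core enzymes the coefficient was higher in MCD than in MCS livers, and Cpt1a, at 5.77% in MCD and 11.6% in MCS, was one of the other two. These genes were picked out after their values were seen.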
